A study of Mus musculus with 3 samples.

Results

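The 8 genes described here belong to the insulin-like growth factor (IGF) system: the ligand Igf1, the receptors Igf1r and Igf2r, the binding proteins Igfbp3, Igfbp4, Igfbp5 and Igfbp7, and the protease Pappa. They were taken by symbol from the 31053 genes in the files, and each symbol matched 1 row. They were followed in 3 gated classes of mouse bone marrow cells: LepR stromal cells (at least 50 UMIs of Cxcl12, at least 1 of Lepr and Adipoq together, at most 2 of Cdh5), arterial endothelial cells (at least 1 UMI of Cdh5, under 50 of Cxcl12, at most 1 of Stab2 and at least 2 of Sox17, Sema3g, Fbln2 and Gja4 detected) and sinusoidal endothelial cells (at least 1 UMI of Cdh5, under 50 of Cxcl12, at least 2 of Stab2). A UMI, or unique molecular identifier, marks 1 captured transcript. None of the 8 genes was used in a gate.

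The study sequenced single LepR-positive and endothelial cells of tibial marrow from C57Bl/6JCrl mice, in 3 libraries of 1 genotype each. The VC library came from Cdh5CreERT2;Vegfc flox/flox mice, in which both Vegfc alleles are floxed and the Cdh5 (VE-cadherin) promoter, active in endothelium, drives a Cre recombinase that tamoxifen switches on. The FLOX library came from Vegfc flox/flox mice with no Cre named, and the WT library from wild-type mice. All of the mice had received tamoxifen by gavage, and the sources used here give neither the age of the mice nor how many made up a library.

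IGF-1 is a secreted growth factor that signals through the receptor tyrosine kinase encoded by Igf1r, while the product of Igf2r takes up IGF-2 and carries mannose 6-phosphate-tagged enzymes to lysosomes. IGF binding proteins hold the ligands outside the cell and set how much reaches the receptor, and the protease PAPP-A (Pappa) cuts certain of them, IGFBP-4 and IGFBP-5 in particular. In marrow, LepR-positive stromal cells lie along the vessels, make Cxcl12 and stem cell factor, which blood stem cells depend on, and can give rise to bone and fat cells.

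The VC, FLOX and WT files held 37361779, 61758462 and 56853574 UMIs, and 2738, 5734 and 4318 barcodes had at least 500 genes and at most 10% mitochondrial UMIs. The gates took 466, 1107 and 264 LepR stromal, 89, 189 and 58 arterial and 1643, 3200 and 2992 sinusoidal cells in VC, FLOX and WT. Kept barcodes shared between libraries numbered 3 for VC and FLOX, 5 for VC and WT and 7 for FLOX and WT. In their own gates, 9 of 9 stromal and 6 of 6 sinusoidal markers were detected in each library, which the gates fixed for Cxcl12, in part for Lepr and Adipoq, and for Stab2; Lyve1 was at most 0.198 CPM (counts scaled to a class total of 1000000 UMIs) in sinusoidal cells. The arterial gate was less uniform: the 9 arterial markers, 4 of them used by the gate, summed to 2234, 2639 and 1300 CPM in VC, FLOX and WT, with Bmx and Gja5 at 0 in WT, and the 12 haematopoietic markers summed to 25900, 25660 and 439. The part of these other markers in the arterial values below was not tested. The floxed gene Vegfc was at 145, 201 and 246 CPM in stromal cells of VC, FLOX and WT. Its UMIs numbered 0, 9 and 2 in arterial and 6, 17 and 61 in sinusoidal cells, and the sources used here do not say whether these 3' tags lie in the deleted part.

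Levels in CPM are the UMIs of a gene over the UMIs of its class in a library, on that scale. Intervals are exact 95% Poisson intervals and cover counting error only. Classes were compared with edgeR's quasi-likelihood test on the 9 sums (3 classes in 3 libraries, library as a block), with Benjamini-Hochberg adjustment over 13601 genes, and a gene was called at an adjusted p under 0.05 and at least 2-fold. These p-values measure the spread between 3 libraries of different genotype.

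Among the 3 classes, LepR stromal cells had the highest levels of Igf1, Igfbp4, Igfbp5 and Pappa, at least 2-fold above both endothelial classes. Igfbp3 was highest in arterial and Igf1r in sinusoidal cells, but in the fit by less than 2-fold over stroma. Igfbp7 and Igf2r differed by less than 2-fold in the fit of each pair of classes. Of the 8 genes, 5 were called higher in stromal than in sinusoidal cells (Igf1, Igfbp3, Igfbp4, Igfbp5 and Pappa) and 0 lower, against 18.3% higher and 15.7% lower of all genes tested. Against arterial cells, 4 were called higher in stromal cells (Igf1, Igfbp4, Igfbp5 and Pappa) and 0 lower, against 18.3% and 13.9% of all genes. Between the endothelial classes, 1 gene was called higher in arterial than in sinusoidal cells (Igfbp3) and 3 lower (Igf1, Igf1r and Igfbp4), against 6.19% and 7.31% of all genes.

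**Figure D1:**
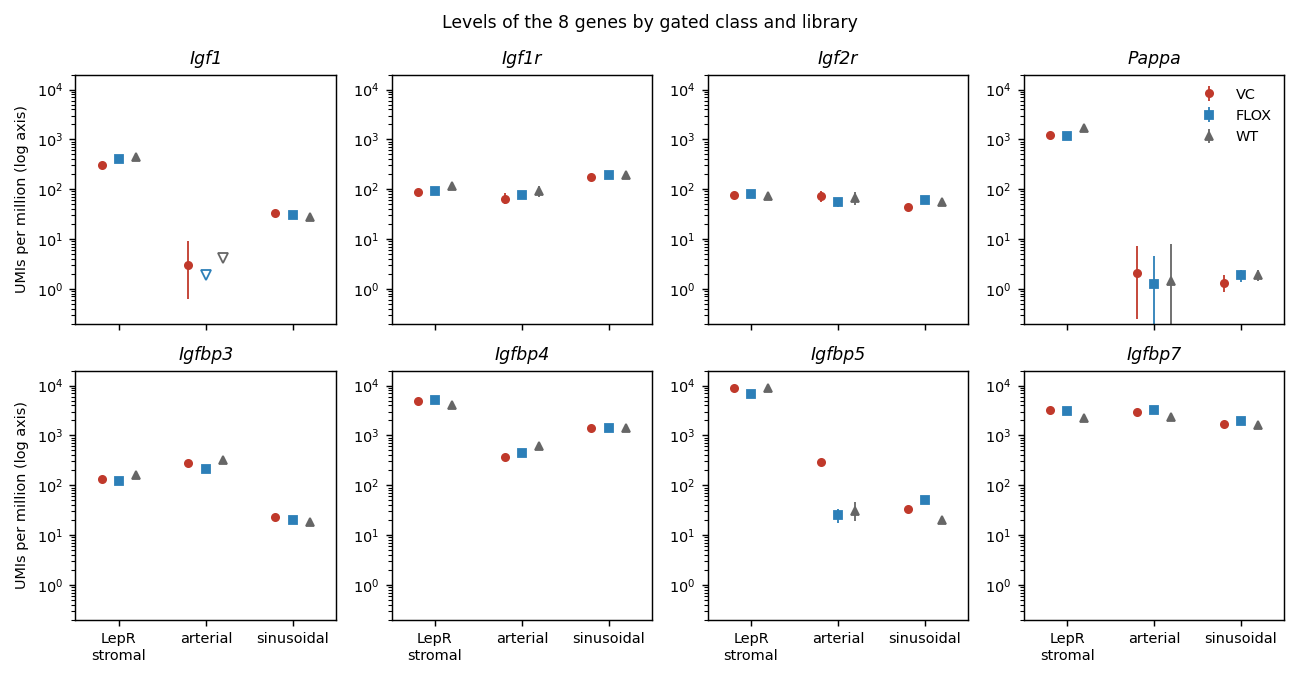
CPM of the 8 genes on a log axis in LepR stromal, arterial and sinusoidal cells of the VC (circles), FLOX (squares) and WT (triangles) libraries, 1 point per library with exact 95% Poisson intervals. Open triangles pointing down mark libraries with 0 UMIs, drawn at the level of 3 UMIs. Igfbp5, Igf1 and Pappa stand highest in stromal cells, Igfbp3 in arterial cells and Igf1r in sinusoidal cells in all 3 libraries.

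Igf1 (chr10:87858265-87937042, plus strand, GRCm38) was highest in stroma, at 311 CPM (298 to 325) in VC, 395 (385 to 406) in FLOX and 447 (423 to 472) in WT. In sinusoidal cells it was at 33.1, 30.2 and 27.8 CPM in VC, FLOX and WT. Stromal cells were higher by 3.63 ± 0.202 on the log2 scale (SE; edgeR adjusted p = 3.465e-08), with ratios of 9.39, 13.1 and 16.1 within VC, FLOX and WT. In arterial cells it had 3 UMIs in VC, all in 1 cell, and 0 in FLOX and WT. Against the floor of 3 UMIs per library, stromal cells were at least 211-fold higher in FLOX and at least 106-fold higher in WT. Arterial cells were also below sinusoidal cells (edgeR adjusted p = 6.953e-05), so the ligand was detected in the sinusoidal but hardly in the arterial gate.

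For the sinusoidal level, Igf1 was set beside the 9 stromal marker genes. Sinusoidal Igf1 stood at 10.6%, 7.64% and 6.22% of the stromal level in VC, FLOX and WT. The stromal markers spread widely on the same measure: Adipoq stood at 0.113%, 0.208% and 0.129%, Lepr at 2.52%, 2.95% and 2.29%, Foxc1 at 11.8%, 12.7% and 7.52% and Vcam1 at 163%, 125% and 83%. Igf1 thus lay above 7 of the 9 markers and below Foxc1 and Vcam1 in each library. In B lineage cells (at least 2 UMIs of Cd79a, under 50 of Cxcl12, none of Cdh5 or Stab2; 149, 331 and 305 cells), Igf1 was at 0.137%, 0.338% and 0.0839% of the stromal level. Igf1 was thus higher in sinusoidal than in B lineage cells in each library, and the part of free RNA in its sinusoidal level was not tested. After each cell was thinned to 2000 UMIs, an Igf1 UMI was found in 6.3%, 5.3% and 4.74% of sinusoidal cells in VC, FLOX and WT and in 0%, 0.617% and 0% of B lineage cells. Without thinning these shares were 24%, 17.7% and 20% of sinusoidal cells and 0.671%, 1.81% and 0.328% of B lineage cells, at median depths of 10745, 7781 and 11106.5 UMIs in sinusoidal and 5850, 10655 and 4941 in B lineage cells. Thinning left out 7, 29 and 18 sinusoidal and 0, 7 and 11 B lineage cells.

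**Figure D2:**
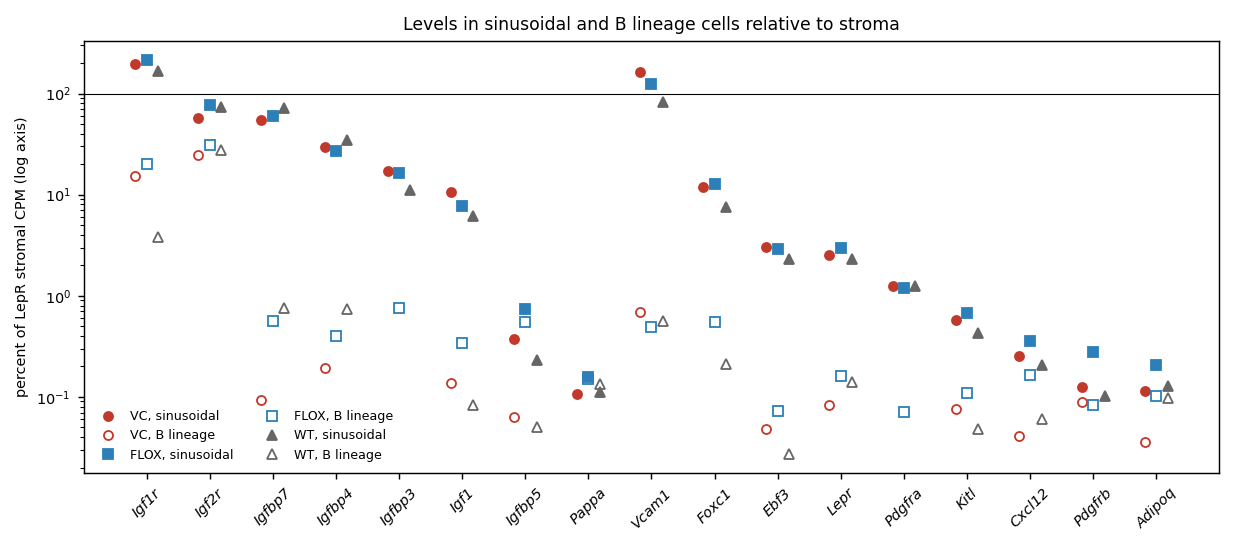
Level of each gene in sinusoidal (filled) and B lineage cells (open) as a percentage of its LepR stromal CPM in the same library, on a log axis, for VC, FLOX and WT; the 8 genes stand left and the 9 stromal markers right, and values of 0 are not drawn. Sinusoidal Igf1 lies at 6.22% to 10.6%, between Lepr (2.29% to 2.95%) and Foxc1 (7.52% to 12.7%), and Adipoq lies lowest or near it.

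Igf1r (chr7:67952827-68233668, plus strand) was highest in sinusoidal cells. It was at 88.1, 89.9 and 117 CPM in stromal, 64.1, 75.4 and 90.03 in arterial and 172, 191 and 196 in sinusoidal cells of VC, FLOX and WT. Arterial cells were lower than sinusoidal cells, with a log2 difference of -1.46 ± 0.124 (SE; edgeR adjusted p = 1.027e-05). Stromal cells were also below sinusoidal cells (log2 difference -0.96, edgeR adjusted p = 1.401e-05), just short of 2-fold in the fit and so not called. The CPM ratio of stromal to sinusoidal cells was 0.5108, 0.4699 and 0.6001 within VC, FLOX and WT.

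Igf2r (chr17:12682406-12769664, minus strand) was the most even of the genes across classes. It was at 77.5, 78.2 and 73.8 CPM in stromal, 72.3, 54.2 and 66.1 in arterial and 44.3, 60.2 and 54.4 in sinusoidal cells of VC, FLOX and WT. Its largest class difference was a log2 difference of 0.52 between stromal and sinusoidal cells (edgeR adjusted p = 0.00518), under 2-fold. The antisense gene Airn, which overlaps Igf2r, was at 35.5, 37.8 and 35.6 CPM in stromal cells. The sources used here do not say how strand was handled in counting, so the split of reads between this pair is uncertain.

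Igfbp5 (chr1:72857932-72874884, minus strand) showed one of the widest gaps between stroma and endothelium among the 8 genes. Stromal cells had 8840, 6895 and 8921 CPM in VC, FLOX and WT, and sinusoidal cells had 33.1, 50.5 and 20.4. The log2 difference was 7.9 ± 0.757 (SE; edgeR adjusted p = 3.85e-06), and 100%, 99.5% and 99.2% of stromal cells had a UMI. Arterial cells had 288, 24.9 and 30.9 CPM in VC, FLOX and WT, and stromal cells exceeded them by 6.74 on the log2 scale (edgeR adjusted p = 2.13e-05). The 288 CPM rested on 1 cell, described with the genotypes below.

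Pappa (chr4:65124174-65357509, plus strand) was at 1232, 1177 and 1688 CPM in stromal cells of VC, FLOX and WT. Arterial cells had 2, 2 and 1 UMIs in all, and sinusoidal cells had 1.3, 1.85 and 1.87 CPM. The stromal excess over sinusoidal cells was 9.63 ± 0.194 on the log2 scale (SE; edgeR adjusted p = 9.853e-11). Pappa and the binding proteins known as its targets, Igfbp4 and Igfbp5, were thus all detected in nearly every stromal cell, with a Pappa UMI in 98.5%, 98.3% and 99.2% of them.

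Igfbp4 (chr11:99041244-99054392, plus strand) was high in stroma and intermediate in sinusoids. Stromal cells had 4862, 5056 and 4038 CPM, arterial cells 371, 444 and 611, and sinusoidal cells 1434, 1379 and 1397 in VC, FLOX and WT. Stromal cells exceeded arterial cells by 3.45 (edgeR adjusted p = 1.272e-07) and sinusoidal cells by 1.71 on the log2 scale (edgeR adjusted p = 1.357e-05). Arterial cells were below sinusoidal cells, with a log2 difference of -1.74 (edgeR adjusted p = 7.378e-05). The order stromal, sinusoidal, arterial held in each of the 3 libraries with no overlap between classes.

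Igfbp3 (chr11:7206086-7213923, minus strand), which encodes the main carrier of IGFs in blood, had the reverse order within endothelium. Stromal cells had 135, 119 and 163 CPM, arterial cells 279, 214 and 328, and sinusoidal cells 23.3, 19.6 and 18.1 in VC, FLOX and WT. Arterial cells exceeded sinusoidal cells by 3.56 ± 0.162 on the log2 scale (SE; edgeR adjusted p = 1.537e-07). In the fit, stromal cells lay below arterial cells by less than 2-fold (log2 difference -0.82, edgeR adjusted p = 0.0009284). The CPM ratio of stromal to arterial cells was 0.4853, 0.5549 and 0.4975 within VC, FLOX and WT. Another setting kept stromal cells with no Cdh5 UMI and endothelial cells with under 5 UMIs of Cxcl12 and none of Adipoq. In it, called no RNA of the other class below, stromal against arterial Igfbp3 turned to 0.43 (edgeR adjusted p = 0.331). It left 29, 56 and 35 arterial cells in VC, FLOX and WT. Cxcl12 was at 1176, 1664 and 678 CPM in the whole arterial gate. Within the arterial gate the Igfbp3 UMIs were concentrated: the 10% of cells with most held 73%, 63.4% and 80.7% of them in VC, FLOX and WT.

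Igfbp7 (chr5:77349240-77408041, minus strand), whose product binds IGFs weakly and is known from vessel walls, was abundant in every class. Stromal cells had 3193, 3165 and 2270 CPM, arterial cells 2990, 3295 and 2310, and sinusoidal cells 1734, 1915 and 1636 in VC, FLOX and WT. Stromal and arterial cells differed by 0.15 on the log2 scale (edgeR adjusted p = 0.4233). Sinusoidal cells were lowest: arterial cells exceeded them by 0.52 (edgeR adjusted p = 0.01996) and stromal cells exceeded them by 0.67 on the log2 scale (edgeR adjusted p = 0.001715), both under 2-fold.

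The DNA just upstream of the 4 binding protein genes is shown because these genes differ in class pattern. RefSeq promoter sequences (GRCm38.p6) were matched for 7 of the 8 genes, all but Pappa. Each line runs 5' to 3' on the gene's strand from base -120 to base -21 before the RefSeq start site, and capitals mark a match to TATAAA (the TATA box) or to one of its relatives TATATA and, in Igfbp5, TATTTAA. The windows are chr1:72874886-72874985 for Igfbp5, chr11:99041124-99041223 for Igfbp4, chr11:7213944-7214043 for Igfbp3 and chr5:77408066-77408165 for Igfbp7.
Igfbp5: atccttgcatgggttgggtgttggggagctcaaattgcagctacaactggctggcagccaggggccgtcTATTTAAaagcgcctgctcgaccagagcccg
Igfbp4: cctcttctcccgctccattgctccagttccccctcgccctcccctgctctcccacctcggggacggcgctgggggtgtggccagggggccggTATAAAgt
Igfbp3: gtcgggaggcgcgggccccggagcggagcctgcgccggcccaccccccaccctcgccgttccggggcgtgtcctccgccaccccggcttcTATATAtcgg
Igfbp7: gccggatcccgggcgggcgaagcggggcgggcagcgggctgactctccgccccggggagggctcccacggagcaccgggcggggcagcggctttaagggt

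Motifs were searched on both strands of the 250 bases before the start site. The first search took TATAAA, the palindromic EBF motif, GTAAACA (forkhead), CACGTG (E-box) and GGGCGG (GC box), which stand in 12.4%, 0.779%, 3.17%, 6.02% and 32.7% of 32851 promoters. TATAAA had 1 match, in Igfbp4 at base -28, and the EBF and forkhead motifs had 0 matches in the 7 genes. CACGTG had 2 matches in Igf2r, and GGGCGG had 2 in Igf1r, 3 in Igf2r and 4 in Igfbp7. TATATA (1 match, Igfbp3, base -30) and TATTTAA (1 match, Igfbp5, base -51) were added after these sequences had been read, so their matches were picked to be found; they stand in 5.25% and 4.18% of promoters. Igfbp7, the most even of the 4 across classes, had no match to the 3 TATA motifs in this window. Neither had Igf1, Igf1r and Igf2r, although Igf1 was called higher in stroma than in both endothelial classes. A match is a description of letters and says nothing of binding.

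Among stromal cells Igfbp7 went with Igfbp4 and against Igfbp5. Over 466, 1107 and 264 cells of VC, FLOX and WT, Spearman's rho between Igfbp5 and Igfbp7 was -0.333, -0.376 and -0.277. Between Igfbp4 and Igfbp7 it was 0.413, 0.347 and 0.325. These are descriptions over cells that share a library and a common total per cell. In VC, FLOX and WT, Igfbp7 correlated with depth at 0.0785, 0.02 and 0.345, and Igfbp5 at -0.215, -0.102 and -0.0381. Igfbp4 did so at 0.0791, 0.142 and 0.355. In WT, Igfbp4 and Igfbp7 thus each followed depth at least as closely as they followed each other (0.325), and the part of depth was not tested. Cells with the most Igfbp7 tended to have less Igfbp5 in each library.

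**Figure D3:**
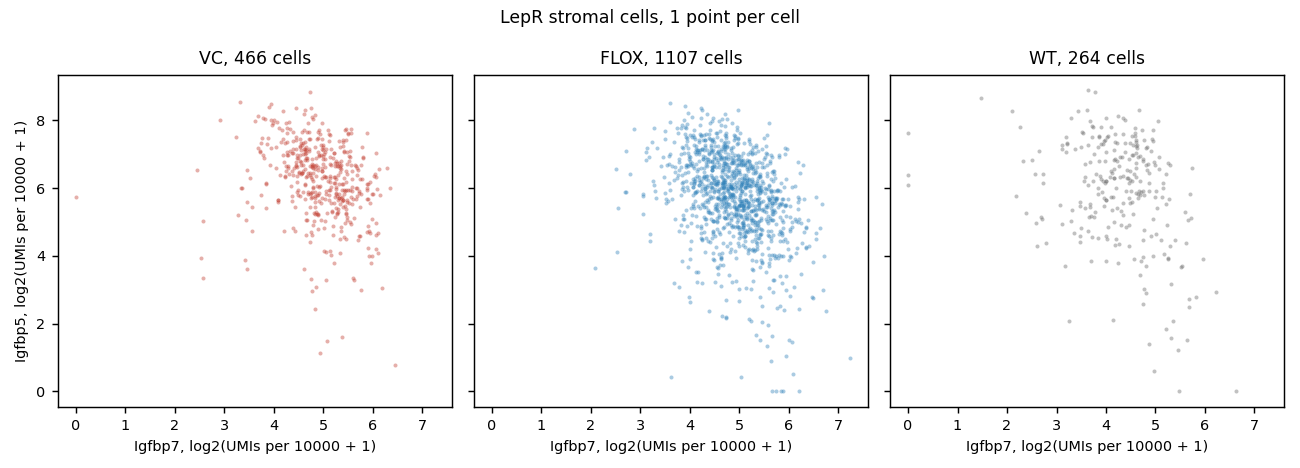
Igfbp5 against Igfbp7 in LepR stromal cells, 1 point per cell, both as log2(UMIs per 10000 + 1), with a panel each for VC (466 cells), FLOX (1107) and WT (264). The clouds slope downward, with rho of -0.333, -0.376 and -0.277.

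Stromal cells with osteogenic RNA carried more Igf1, Igfbp4 and Igfbp7 and less Igfbp3 than those without. The split set cells with at least 3 UMIs over Alpl, Sp7, Bglap, Bglap2 and Bglap3 (73, 153 and 34 cells in VC, FLOX and WT) against cells with 0 (251, 590 and 159). For Igf1 the ratio was 1.64, 1.64 and 1.3, and for Igfbp4 it was 1.61, 1.57 and 1.69. For Igfbp7 it was 1.27, 1.3 and 1.21, and for Igfbp3 it was 0.441, 0.719 and 0.661. The osteogenic cells were deeper, with medians of 16986, 14363 and 14509 UMIs against 12827, 10397 and 9699. In cells thinned to 5000 UMIs and split at 2 UMIs, the ratios were 1.29, 1.29 and 1.55 for Igf1, 1.55, 1.38 and 1.44 for Igfbp4, and 0.39, 0.657 and 0.854 for Igfbp3, where the WT interval (0.467 to 1.45) included 1. The Igfbp7 ratios after this thinning were 1.176, 1.325 and 1.229. Cells of 1 library are not replicates, and no test was made.

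In VC, sinusoidal cells with at least 5 UMIs of Cxcl9, an interferon-induced chemokine, had less Igf1, Igf2r and Igfbp5 than those with none. In WT the Igf1 and Igf2r intervals included 1. Cells with at least 5 UMIs of Cxcl9 numbered 968, 253 and 437, against 406, 1659 and 1204 with none, in VC, FLOX and WT. The Igf1 ratio was 0.437 (0.368 to 0.52), 0.76 (0.599 to 0.954) and 0.887 (0.744 to 1.06), and the Igfbp5 ratio was 0.31, 0.579 and 0.806. Thinned to 5000 UMIs, the Igf1 ratio was 0.46 (0.35 to 0.604) in VC, 0.836 (0.561 to 1.21) in FLOX and 0.687 (0.45 to 1.01) in WT. The Igfbp5 ratio after thinning was 0.33, 0.492 and 0.537, but few cells carried its UMIs. Without the cell with most Igfbp5 UMIs among those split, chosen after the data had been seen, it was 0.654 (0.477 to 0.899) in VC, 0.549 (0.371 to 0.787) in FLOX and 0.624 (0.339 to 1.07) in WT after thinning. Unthinned it was then 0.714, 0.657 and 0.965 (0.769 to 1.21 in WT). Without that cell the Igfbp5 interval in WT thus included 1 at both depths. The Igfbp4 ratio after thinning was 0.957, 1.08 and 1.03. The Igf2r ratio was 0.66, 0.884 and 0.93 in VC, FLOX and WT unthinned. Thinned, it was 0.635 (0.508 to 0.795), 0.774 (0.57 to 1.03) and 1.07 (0.831 to 1.36). Its intervals in FLOX and WT included 1 at both depths.

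**Figure D4:**
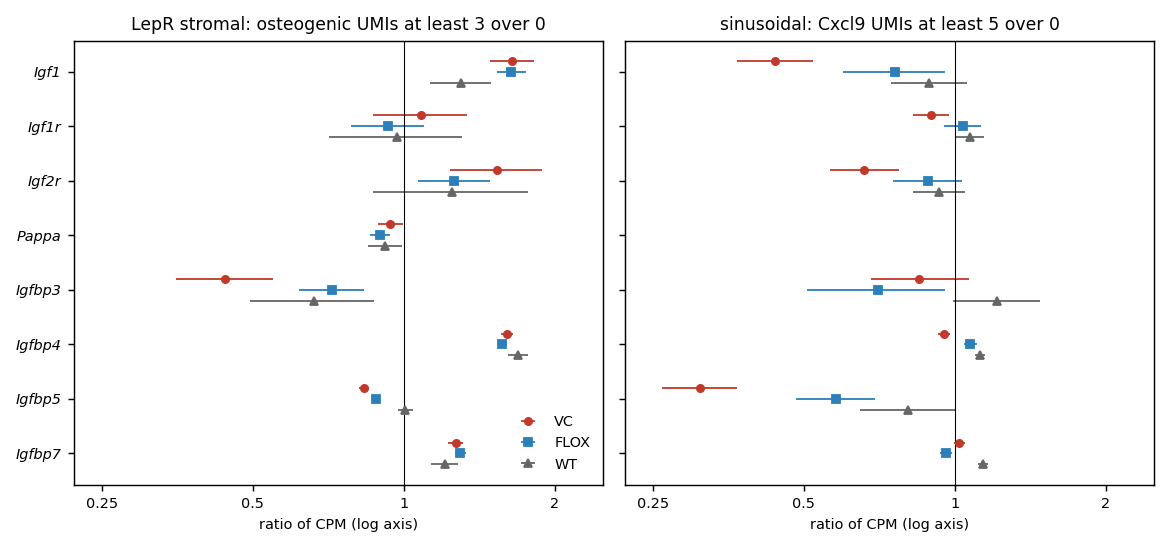
Ratio of CPM on a log axis with 95% counting intervals for VC (circles), FLOX (squares) and WT (triangles), unthinned. Left, LepR stromal cells with at least 3 osteogenic UMIs over those with 0; right, sinusoidal cells with at least 5 Cxcl9 UMIs over those with 0 (Pappa not drawn). Igf1, Igfbp4 and Igfbp7 lie above 1 on the left, and on the right Igfbp5 lies below 1, with single cells of many UMIs included.

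For the genotypes, each value is 1 library and has no replicate check, so no test was run. A gene was past the size where VC was at least 1.5-fold higher, or lower, than FLOX and WT alike and by more than these differed, counting only genes whose 3 libraries averaged 10 CPM or more and held 50 UMIs or more together. In stroma 0 of 8 genes were past it, against 0.916% higher and 0.51% lower of all genes. In arterial cells 1 of 6 was (Igfbp5, higher), against 2.05% and 3.34%. In sinusoidal cells 0 of 7 were, against 1.43% and 0.301%.

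In stroma Igf1 had a lower level in VC than in FLOX and in WT. The ratio was 0.787 (0.749 to 0.828) for VC over FLOX and 0.696 (0.65 to 0.746) for VC over WT, while FLOX over WT was 0.884 (0.833 to 0.94). The other stromal differences did not follow 1 pattern. Igfbp7 had a ratio of 1.41 for VC over WT and 1.39 for FLOX over WT, but 1.01 for VC over FLOX. Pappa had 0.73 for VC over WT, 0.698 for FLOX over WT and 1.05 for VC over FLOX. Igfbp5 had 0.991 for VC over WT, 1.28 for VC over FLOX and 0.773 for FLOX over WT. Thus WT stood apart for Igfbp7 and Pappa and FLOX for Igfbp5. The 6 interferon-induced genes, a list made after the data had been seen, summed to 6318, 1214 and 618 CPM in stroma, and the haematopoietic markers to 9573, 3270 and 1483, with VC highest in both; their part in the Igf1 values was not tested.

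Arterial Igfbp5 in VC came mainly from 1 cell, which held 243 of 283 UMIs. That cell had 17869 UMIs in all, among them 106 of the fibroblast gene Dcn and 234 of the neutrophil genes S100a8, S100a9, Ngp and Camp, and was among the top 5% of doublet scores. The highest cell of each library was then left out, a choice made after the data had been seen. Arterial Igfbp5 was at 41.5, 21.4 and 11.5 CPM in VC, FLOX and WT, still past the size. The cell left out in WT held 14 of 22 UMIs and was not among the top doublet scores. With that cell kept, WT was at 30.95 CPM, and the 41.5 CPM in VC was less than 1.5-fold above it. With stricter gates, or without the top doublet scores, VC lay below WT. For arterial cells the setting called looser gates asked for under 20 UMIs of Cxcl12 and none of Stab2. It thus took fewer of them, 51, 104 and 26 in VC, FLOX and WT. In it Igfbp5 was no longer past the size and Igf1r was, with log2 ratios of -1.17 for VC over WT and -0.94 for VC over FLOX. Arterial Igfbp4 was at 371 CPM in VC, with ratios of 0.835 over FLOX and 0.607 over WT, while FLOX over WT was 0.727.

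In sinusoidal cells Igfbp5 separated the libraries most, at 33.1 CPM (30.7 to 35.6) in VC, 50.5 (48.0 to 53.1) in FLOX and 20.4 (19.0 to 21.9) in WT. VC lay between the controls, with ratios of 0.655 over FLOX and 1.62 over WT, and FLOX was 2.47 times WT. Few cells carried most of its UMIs: the top 10% of cells held 92.5%, 86.5% and 98.6% of them, and 1 cell held 20.8%, 7.07% and 20.6%. With at least 1000 genes and at most 5% mitochondrial UMIs per cell, the log2 ratio of VC over WT was 0.183 against 0.697 in all kept cells. That of VC over FLOX was -1.09 against -0.61. With no RNA of the other class the log2 ratios were 1.18 for VC over WT and -0.783 for VC over FLOX. Igf2r was lower in VC, with ratios of 0.736 over FLOX and 0.814 over WT, and Airn was at 15.4, 24.6 and 25.5 CPM in VC, FLOX and WT. Igf1r had ratios of 0.902 over FLOX and 0.882 over WT.

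**Figure D5:**
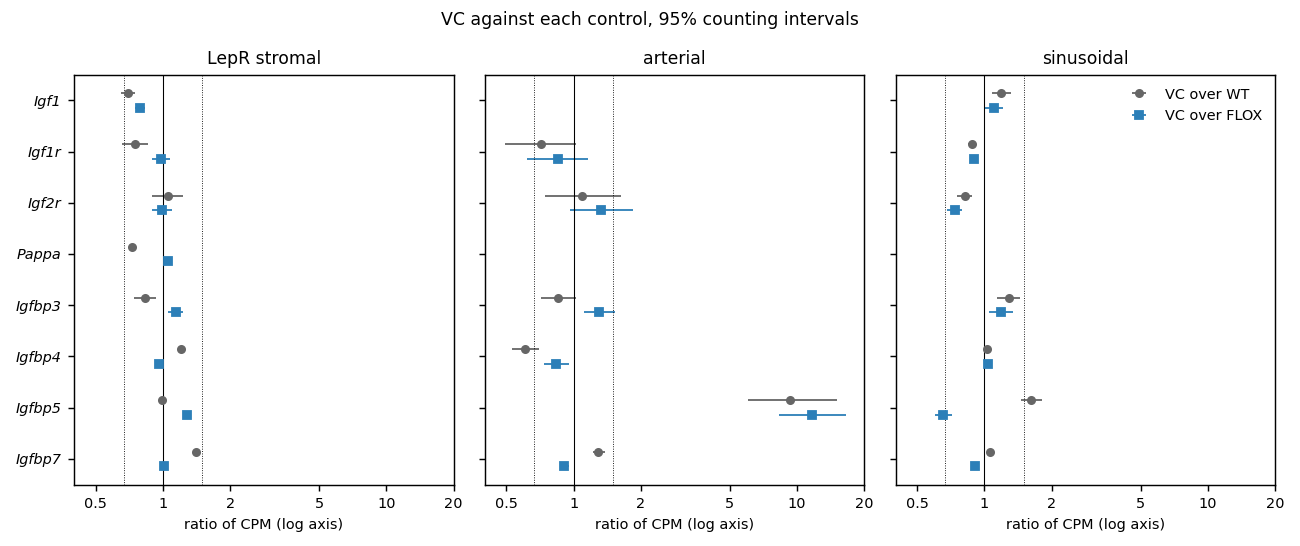
Ratio of CPM in VC over WT (circles) and VC over FLOX (squares) on a log axis with 95% counting intervals, by class; dotted lines mark 1.5-fold in each direction and genes under the minimum level are not drawn. Arterial Igfbp5 stands at 9.31 and 11.6, and the other ratios lie between 0.6 and 1.7.

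The wider pathway was read from a list of 50 genes, of which 44 were tested. Stromal cells were higher for 19 and lower for 3 of them than sinusoidal cells, with a median log2 difference of 0.71 against -0.00534 over all genes, of which 18.3% were higher and 15.7% lower. Without the 8 genes above, the counts were 14 and 3 of 36. Against arterial cells, 23 were higher and 2 lower in stroma, with a median of 1.3 against 0.0874 and 18.3% and 13.9% of all genes. Between arterial and sinusoidal cells, 3 were higher and 9 lower, with a median of -0.19 against -0.12 and 6.19% and 7.31% of all genes. Between stroma and endothelium, Insr, the insulin receptor, went the other way from Igf1. It was at 34.9, 40.7 and 53.0 CPM in stromal, 414, 291 and 560 in arterial and 901, 866 and 665 in sinusoidal cells of VC, FLOX and WT. Like Igf1, Insr was called lower in arterial than in sinusoidal cells. Stromal cells were below sinusoidal cells by a log2 difference of -4.3 (edgeR adjusted p = 5.81e-08).

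Other genes of the list, picked after their values had been seen, filled in the same contrast. The growth hormone receptor gene Ghr averaged 345, 33.4 and 35.5 CPM over the libraries in stromal, arterial and sinusoidal cells, and the insulin receptor substrate gene Irs1 averaged 85.2, 1.09 and 0.356. Both were called higher in stroma than in sinusoids (edgeR adjusted p = 1.45e-09 and 3.1e-10). Endothelium held the reverse for Stc1, which encodes stanniocalcin-1, an inhibitor of PAPP-A: it averaged 0.568, 210 and 92.2 CPM in stromal, arterial and sinusoidal cells (stromal against sinusoidal, edgeR adjusted p = 6.43e-10). Igfbp2 was a sinusoidal gene among the binding proteins, at 3.16, 1.22 and 76.2 CPM (edgeR adjusted p = 6.16e-10). Between genotypes, the genes of the list past the size were Igfbp5 and Socs3, which encodes a feedback inhibitor of cytokine signalling, both higher in arterial cells (2 of 31 tested, against 2.05% higher and 3.34% lower of all genes), and 0 of 39 in stroma and 0 of 35 in sinusoids were. Arterial Igfbp5 rested mainly on the 1 cell described above. Socs3 was at 97.7, 43.0 and 40.8 CPM in arterial cells of VC, FLOX and WT. The median log2 ratio of the list in stroma was -0.303 for VC over WT and -0.102 for VC over FLOX, against -0.0623 and -0.051 over all genes.

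Genes whose pattern over the 9 sums lay nearest to each member were ranked by the root mean square difference of centred log2(CPM + 1) among 3648 genes. Pappa lay nearest to Spp1, Cyp1b1 and Cdh11 (0.365 to 0.403), and Igfbp5 to Pdgfrb, Sfrp4 and Epdr1 (0.447 to 0.568). The 9 sums include the arterial VC value of Igfbp5, most of which came from the 1 cell described above. The ranking was not repeated without that cell. Igf1 had no close neighbour, with Cdh2, Rarres2 and Bmp4 at 0.728 to 0.794. Igfbp4 lay nearest to Frmd6, Bgn and Cd63 (0.179 to 0.333), Igfbp3 to Slc6a6, Fam13c and Irx3 (0.32 to 0.434) and Igfbp7 to Rabac1, Ifitm2 and Vamp8 (0.0443 to 0.082). Igf1r lay nearest to Slc26a2, Rnf2 and Zfp503 (0.139 to 0.161) and Igf2r to Fermt2, Cyhr1 and Taf15 (0.129 to 0.141). The nearest distances were smallest for Igfbp7, then Igf2r, the genes that differed by less than 2-fold in each pair of classes. Those of Igf1r were close to those of Igf2r.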

How the data were processed

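The authors deposited raw UMI counts per gene and barcode, 1 filtered matrix per library, from 10x single-cell libraries (3' chemistry, v3.1) per the labels' protocols. Cell Ranger 2.1.1 and Seurat 3.1, with build mm10, stand in the submitters' processing notes, while the matrix headers give software 3.1.0, so the version behind the counts is uncertain. The sources used here do not give the gates of the sort.

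UMIs were summed per library and gated class. Class contrasts used edgeR 4.0.16 (R 4.3.3; TMM, filterByExpr, quasi-likelihood F test, library as a block), with DESeq2 1.42.0 as an alternative. On simulated counts of 13234 genes for stromal against sinusoidal cells, 99 of 100 genes changed by 1 on the log2 scale and 100 of 100 changed by 2 were recovered, with 10 false among 209 calls. These calls used an adjusted p under 0.05 alone, without the 2-fold rule. They therefore do not give the recovery or false calls of the full rule. The changed genes were drawn from those averaging at least 10 CPM, and the simulated libraries had no differences of their own beyond size and noise. The recovery thus does not extend to genes at lower levels or to real library differences. Genes changed by 1 had a median estimate of 1.022. Poisson, binomial and ratio intervals came from scipy 1.17.1. Doublets stayed in; Scrublet (scanpy 1.11.5) scores served only to leave out the top 5% as an alternative, and its automatic calls were not used because their number changed between runs.

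The 8 genes, the lists and the splits were chosen with earlier results of these data known. Named genes are the 8 members, list genes past the size, the 3 list genes with the highest CPM in each class, and the 3 nearest genes to each member; others are said to be picked later. Alternatives covered gates, cell filters, depth, scaling, minimum levels, doublets, the test and each library left out. Nothing says that cells of a library came from separate animals.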

Additional observations from a re-analysis of the deposited data

Results flagged for a closer look

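Igfbp4 was lower in VC than in both other libraries in arterial cells and slightly higher in sinusoidal cells. In arterial cells VC was at 0.607 times WT (0.527 to 0.699) and 0.835 times FLOX (0.734 to 0.949). FLOX was at 0.727 times WT there (0.644 to 0.821), so the controls differed by more than VC and FLOX did. In sinusoidal cells VC was at 1.03 times WT (1.01 to 1.04) and 1.04 times FLOX (1.02 to 1.06). Sinusoidal markers in the arterial gate summed to 1061, 862 and 1516 CPM in VC, FLOX and WT, and their part in the arterial values was not tested. The setting with no RNA of the other class used Cxcl12 and Adipoq here, not sinusoidal markers. It left 29, 56 and 35 arterial cells in VC, FLOX and WT. The arterial log2 ratio of VC over WT was then -0.219, against -0.72 in the whole gate. That of VC over FLOX was -0.557, against -0.26. The intervals given exclude 1 but cover counting error only, and the difference between the classes was not tested.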

How the results depend on the processing

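Of the 8 genes, 5, 4 and 4 were called in the contrasts of stromal with sinusoidal, stromal with arterial and arterial with sinusoidal cells, and DESeq2 and the fit with no replicate block, which drops the pairing by library, gave 5, 4 and 4 too. In 4 alternatives 1 more gene was called: Igf1r (-1.08) in the first contrast without WT, Igfbp3 (-1.25) in the second with stricter gates, and Igfbp5 in the last with no filter on low counts (1.19) and without FLOX (2.26). Across genes, arterial against sinusoidal calls numbered 842 higher and 994 lower, against 535 and 591 without FLOX and 436 and 672 with no RNA of the other class. The number past the size in arterial cells, 1, stayed 1 with the setting called looser gates, which took fewer arterial cells. There it was Igf1r in place of Igfbp5. The number became 2 with each cell weighted alike (Igf1r and Igfbp5). It became 0 with stricter gates, with no RNA of the other class and without the top 5% doublet scores. With no RNA of the other class, Igfbp5 kept log2 ratios of 2.61 for VC over WT and 1.52 for VC over FLOX. There it was not counted because it fell under the minimum level. Stromal Igf1 kept its direction, at -0.604 to -0.43 for VC over WT and -0.365 to -0.304 for VC over FLOX on the log2 scale. Log2 values that turned direction were, for arterial against sinusoidal Igfbp5, -0.224 (stricter gates), -0.432 (looser gates and, as a separate setting, top doublet scores out), -0.0651 (no RNA of the other class), -0.118 (neutrophil RNA out, added after the data were seen) and -0.523 (without VC; 2.26 without FLOX). The same contrast gave -0.00916 (stricter gates) and from -0.129 (without VC) to 0.425 (without FLOX) for Igf2r, and 0.284 (no RNA of the other class) and from -0.618 (without VC) to 0.125 (without FLOX) for Pappa. Igfbp3 in stromal against arterial cells turned to 0.431 with no RNA of the other class. Arterial Igfbp5 turned to -0.76 for VC over WT and -0.34 for VC over FLOX with stricter gates, and to -0.149 for VC over WT without the top doublet scores. The cause was not tested. Median-of-ratios scaling shifted log2 VC over WT by 0.0919 in stromal, 0.101 in arterial and 0.147 in sinusoidal cells. The arterial gate rests on few cells, 89 in VC, 189 in FLOX and 58 in WT.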
